A study of Mus musculus with 3 samples.

Results

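The cells described here were lung epithelial barcodes high in Krt8, positive for Cldn4 and low in Sftpc, the combination used to mark a transitional state between alveolar cell types. They were chosen by measured values. Each had at least 0.2% of its UMIs (unique molecular identifiers, the counted molecules) from Krt8, at least 3 UMIs of Cldn4, under 1% from Sftpc, under 2% from Scgb1a1, 0 of Foxj1, and a UMI of at most 1 of Krt5, Krt14 and Trp63. The rule was applied to barcodes with 3000 or more UMIs, 500 or more genes and at most 15% mitochondrial UMIs. It found 442 members among 8781 barcodes past these quality limits, out of 16627 barcodes in all.

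The study followed 3 lineages in mouse lungs injured with bleomycin, a drug that damages the alveoli, and taken 4 weeks later. All mice had the genotype Scgb1a1-CreER;Sftpc-DreER;R26-TLR. Whole lungs were digested with proteases, and cells were sorted by reporter fluorescence into a Club-Tracer library (tdTomato), a BASC-Tracer library (ZsGreen and tdTomato) and an AT2-Tracer library (ZsGreen), each profiled by single-cell 5′ RNA sequencing. Scgb1a1 drives the CreER recombinase and Sftpc drives the DreER recombinase, so a reporter marks past promoter activity and not present cell type. BASC stands for bronchioalveolar stem cell, a cell at the bronchioalveolar duct junction that carries both a club and an alveolar type 2 marker. The libraries share genotype and injury, no uninjured library was analysed here, and the number and age of the mice behind each library are not given in the sources used here. There was 1 library per lineage, so no difference below has a replicate check or a test. Intervals are exact 95% intervals that cover counting error only.

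In the alveolus, type 2 (AT2) cells make surfactant and type 1 (AT1) cells form the thin gas exchange surface. After injury, cells that regenerate AT1 cells pass through a spread, keratin-rich state that is known for Krt8, Cldn4, Sfn, p53 target genes and contractile genes. Krt8 encodes a simple epithelial keratin and lies at chr15:101996698-102004482 on the minus strand of GRCm38 (gene ENSMUSG00000049382). Cldn4 encodes a tight junction claudin and lies at chr5:134945119-134946934 on the minus strand (ENSMUSG00000047501). Clu, which encodes the secreted chaperone clusterin, lies at chr14:65968483-65981547 on the plus strand (ENSMUSG00000022037). Tpm2, which encodes an actin-binding tropomyosin, lies at chr4:43514711-43523765 on the minus strand (ENSMUSG00000028464). All 4 are annotated as protein coding.

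Promoter sequences of the 2 genes that define the members are shown, since AP-1 and TEAD factors are known regulators of epithelial injury genes. RefSeq windows on GRCm38.p6 covered 8 of the 11 genes looked up, and the 250 bases before the start of each were searched on both strands. The Cldn4 window, chr5:134946935-134947184 on the minus strand, held 2 matches to the AP-1 motif TGANTCA, in capitals, starting 240 and 158 bases before the gene's start. The Krt8 window held 0 matches, and its 110 bases outside annotated exons, chr15:102004483-102004592 on the minus strand, are given for comparison. Both lines read 5′ to 3′.
Cldn4: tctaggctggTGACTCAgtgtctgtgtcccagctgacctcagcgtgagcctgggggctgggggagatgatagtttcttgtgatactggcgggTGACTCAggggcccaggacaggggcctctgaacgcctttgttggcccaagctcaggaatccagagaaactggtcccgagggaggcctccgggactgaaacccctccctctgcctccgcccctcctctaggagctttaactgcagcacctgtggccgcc
Krt8: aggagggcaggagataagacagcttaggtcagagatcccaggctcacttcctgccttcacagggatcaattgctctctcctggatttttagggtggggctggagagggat
The AP-1 motif was present in 2216 of 32817 windows of the same length (6.75%), and the TEAD motif GGAATG in 4148 (12.6%). Sfn, Krt18, Krt7, Tpm2, Memo1 and Dstn had 0 matches to either motif, and Cldn4 and Krt8 had 0 matches to the TEAD motif. In Tpm2, Krt7, Krt18 and Dstn only the first 39, 82, 214 and 239 of the 250 bases lay before an annotated exon base. The Krt7 and Memo1 windows lay inside the annotated gene. No window was held for Clu, Krt19 or S100a14. A match describes letters in a window, not a bound site.

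Members made up 3.08% of barcodes past the quality limits in the Club-Tracer library (87 of 2825, Clopper-Pearson interval 2.47 to 3.79%), 4.88% in the BASC-Tracer library (54 of 1107, 3.69 to 6.32%) and 6.21% in the AT2-Tracer library (301 of 4849, 5.55 to 6.92%). Among cells with an Epcam UMI, the general epithelial adhesion gene, the shares were 3.42%, 5.93% and 9.92% in the same order of libraries. These shares depend on the sort and on the limits of the rule. With Krt8 at 0.1% or more the order of the last 2 libraries turned round, to 9.76% in BASC-Tracer and 9.47% in AT2-Tracer. The airway gene limits removed most Club-Tracer candidates. Of 266 Club-Tracer barcodes that passed the Krt8, Cldn4 and Sftpc limits, 166 passed the Scgb1a1 limit and 90 also had 0 Foxj1, against 77, 65 and 54 barcodes in BASC-Tracer and 325, 323 and 301 in AT2-Tracer.

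Many members sat close to the Krt8 limit. Between 0.2 and 0.25% of UMIs lay 18 Club-Tracer, 25 BASC-Tracer and 73 AT2-Tracer members, while 30, 28 and 69 barcodes that met the other limits lay just outside, between 0.15 and 0.2%. The Sftpc limit divided few cells. In AT2-Tracer 10 members lay between 0.5 and 1% Sftpc and 21 barcodes just outside, between 1 and 2%. In Club-Tracer 22 members lay between 1 and 2% Scgb1a1 and 20 barcodes between 2 and 4%. Sftpc, the surfactant protein C gene, had at least 1 UMI after thinning each cell to 3000 UMIs in 31.0%, 51.9% and 62.8% of members, against 55.6%, 40.6% and 68.7% of background cells in the same libraries. Background cells were 9, 64 and 898 barcodes with 0 Epcam UMIs and 3 or more UMIs of Ptprc, Pecam1 or Cdh5. Ptprc, Pecam1 and Cdh5 mark blood and endothelial cells. The Sftpc share in members was below background in Club-Tracer and AT2-Tracer and above it in BASC-Tracer. The rule capped Sftpc and Scgb1a1 in members but not in background cells, so their shares are a description. Scgb1a1, the club cell secretoglobin gene, had a UMI in 98.9%, 66.7% and 2.33% of thinned members, against 100%, 79.7% and 6.01% of thinned background cells.

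The libraries held 62570890 (Club-Tracer), 29013077 (BASC-Tracer) and 72256580 (AT2-Tracer) UMIs as deposited. Members were deeply counted. The median member had 19670 UMIs in Club-Tracer, 29566 in BASC-Tracer and 17459 in AT2-Tracer, and 4750, 5701.5 and 4489 genes. Background cells had medians of 8192, 12671.5 and 10419.5 UMIs. A doublet caller marked 2, 0 and 1 members. Barcode sequences were shared between libraries (73 between Club-Tracer and BASC-Tracer, 122 between Club-Tracer and AT2-Tracer, 94 between BASC-Tracer and AT2-Tracer), and 11 members had a barcode that also occurred elsewhere, with 0 barcodes a member in both. The reporters matched the sorts. The tdT transcript summed to 1423, 1478 and 0.349 CPM in Club-Tracer, BASC-Tracer and AT2-Tracer members, against 24.3, 0 and 0.1 CPM in their background cells, where CPM stands for a gene's UMIs scaled to a fixed total of UMIs over the summed cells (counts per 1e6). The ZsGFP transcript summed to 70.5, 10872 and 9117 CPM in members, against 24.3, 18.8 and 67.1 CPM in background cells.

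Comparison cells came from the same barcodes by fixed limits. Ager-positive cells low in Krt8 stood for AT1 cells (43, 86 and 459 cells in Club-Tracer, BASC-Tracer and AT2-Tracer, with medians of 9257, 10070.5 and 7912 UMIs). Sftpc-high cells low in Krt8 stood for AT2 cells (184, 207 and 1224 cells, medians 24767.5, 30290 and 17429.5 UMIs). Cells that met the members' limits except that Sftpc was at 1% or more numbered 5, 8 and 60, so only the 60 AT2-Tracer cells, with a median of 23579 UMIs, entered a comparison. These classes were also set by measured values. Their limits fix Krt8 and Sftpc and used Ager, Rtkn2, Clic5, Akap5 and Hopx for the first class and Lamp3, Abca3, Napsa and Slc34a2 for the second, so values of these genes are a description. The Ager-positive class carried other RNA. The club cell gene Cyp2f2 had 3645 and 2013 CPM in Club-Tracer and BASC-Tracer. In AT2-Tracer, Lyz2, a gene of AT2 cells and macrophages, had 1554 CPM, and Apoe, a macrophage gene, had 1006 CPM. The part of this RNA in the differences was not tested.

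The rule fixed high Krt8 and Cldn4, and their values are a description. Krt8 averaged 3647, 3774 and 4887 CPM in Club-Tracer, BASC-Tracer and AT2-Tracer members, against 536, 537 and 514 CPM in Ager-positive cells and 470, 426 and 432 CPM in Sftpc-high cells. Single members ranged from 2004 CPM to 13873 CPM in AT2-Tracer, with a median of 3548 CPM, and the medians in Club-Tracer and BASC-Tracer were 3100 and 2695 CPM. Cldn4 reached 1601, 2325 and 2432 CPM in members, against 178, 277 and 130 CPM in Ager-positive cells and 17.8, 17.7 and 23.5 CPM in Sftpc-high cells. Cldn4 was thus low in both comparison classes of every library, and lower in the Sftpc-high class than in the Ager-positive class.

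Clu summed to 4508, 3812 and 4600 CPM in Club-Tracer, BASC-Tracer and AT2-Tracer members, against 1304, 602 and 347 CPM in Ager-positive cells and 292, 193 and 198 CPM in Sftpc-high cells. The members were higher in each library, by 3.46 times (3.18 to 3.77), 6.34 times (5.85 to 6.87) and 13.3 times (12.59 to 13.97) over Ager-positive cells. These sums were skewed towards a few cells. The median member had 929, 319 and 741 CPM of Clu in the 3 libraries, while the highest single members had 30004, 35034 and 55952 CPM. After thinning to 3000 UMIs, 79.3%, 61.1% and 75.4% of members had a Clu UMI, against 65.1%, 43.0% and 37.5% of Ager-positive cells and 0%, 3.12% and 2.12% of background cells.

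Tpm2 sums differed between lineages, and many members had 0 UMIs of it, which at this depth does not show that they lacked the transcript. It summed to 125, 267 and 563.5 CPM in Club-Tracer, BASC-Tracer and AT2-Tracer members, against 27.4, 9.98 and 30.3 CPM in Ager-positive cells and 2.45, 4.19 and 7.60 CPM in Sftpc-high cells. The median member had 0 CPM in Club-Tracer and BASC-Tracer and 136 CPM in AT2-Tracer. In BASC-Tracer 1 cell gave 36.8% of the Tpm2 UMIs. After thinning, 21.8%, 22.2% and 40.2% of members had a Tpm2 UMI, against 0%, 0% and 0.557% of background cells.

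**Figure D1:**
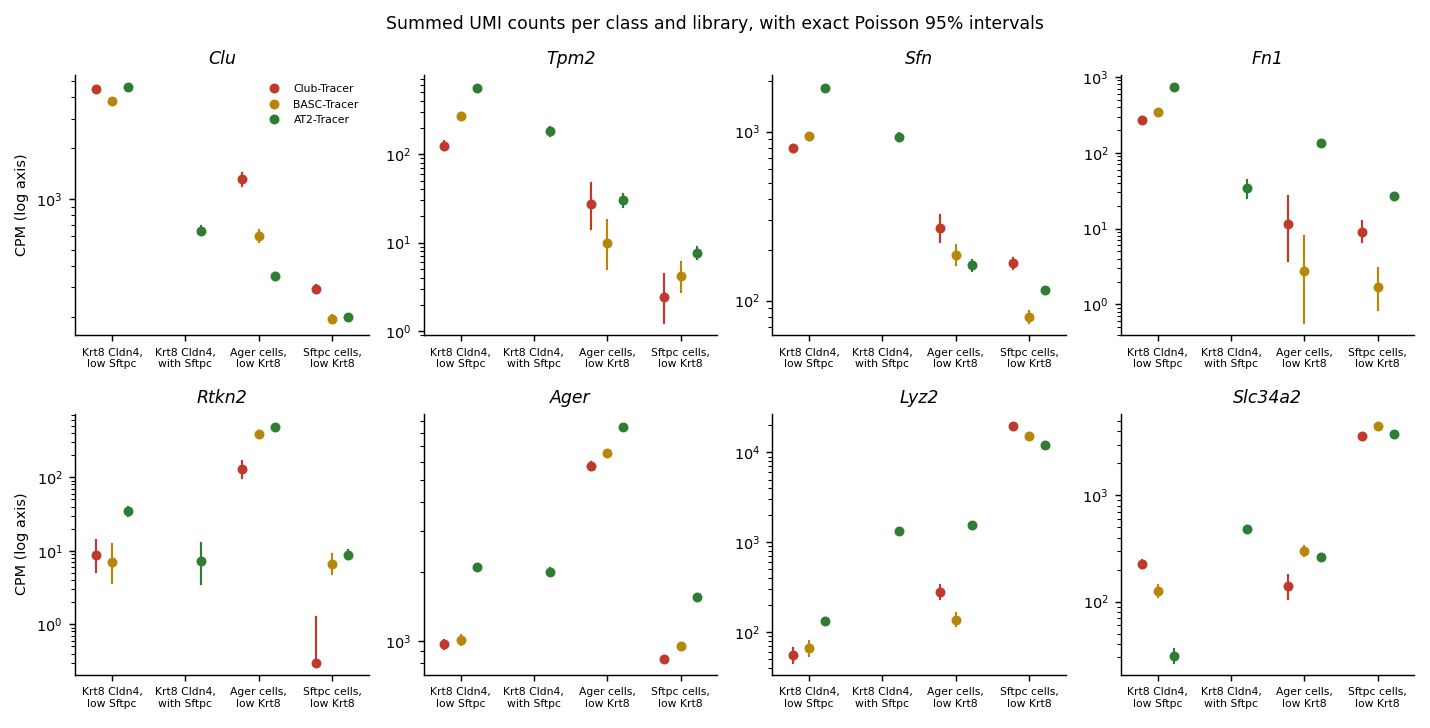
Summed UMIs as CPM (log axis, a value of 0 drawn at 0.3) of 8 genes in members and the comparison classes, by library, with exact 95% counting intervals. Members lie above both comparison classes for Clu and Tpm2, below the Ager-positive class for Rtkn2 and Ager, and below the Sftpc-high class for Lyz2 and Slc34a2.

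**Figure D2:**
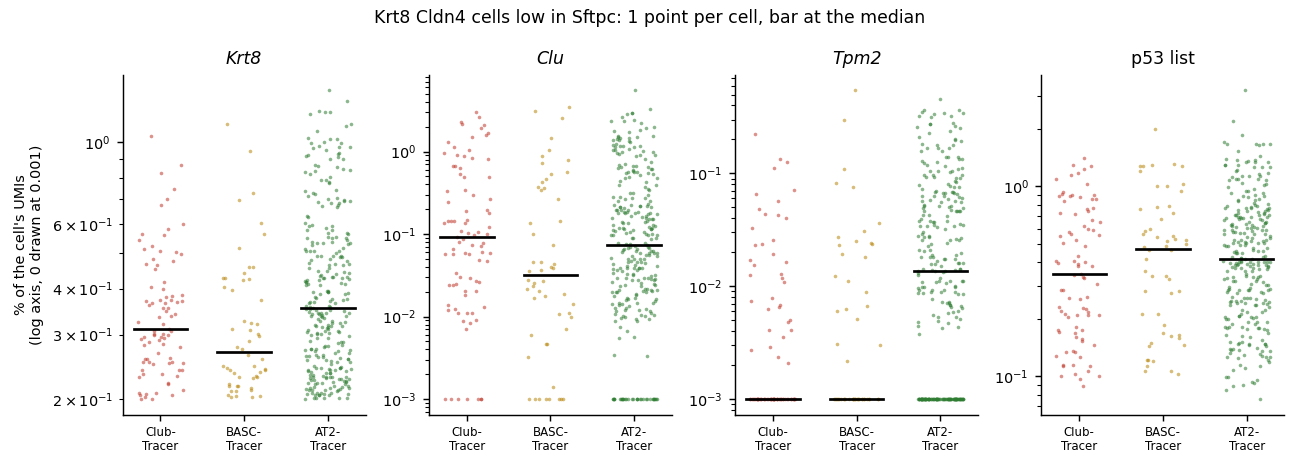
Percent of UMIs per member cell for Krt8, Clu, Tpm2 and the 23 listed p53 target genes together, by library; each point is a cell. Krt8 starts at the 0.2% limit of the rule, while Clu spreads from 0 to several percent of UMIs within each library.

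In the gene lists below, a gene counted as higher or lower when the sums differed by 2-fold or more, as log2 of CPM plus 5, with 50 CPM or more in the higher class. For comparisons inside 3 libraries the log2 difference is the unweighted mean over them. Genes of the rule were left out of every list count, and a listed gene under 50 CPM in both classes was not measured. A list that names the class it is compared with (AT1, AT2) follows how that class was chosen. The rule also set members apart from Ager-positive and Sftpc-high cells by Krt8. Counts for lists of genes that follow Krt8, such as the transitional, keratin and contractile lists, are therefore a description.

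Against Sftpc-high cells, members were low in the AT2 program and high in keratins, contractile genes and adhesion genes. Of 4268 genes measured, 22.0% differed 2-fold or more, 15.6% higher and 6.33% lower in members, and the median gene was 0.398 log2 units higher in members. When that median was set to 0, 351 genes were higher and 431 lower, against 667 and 270 without that scaling. In every library at once, 10.8% of 3191 genes were higher and 4.67% lower. All 17 measured genes of the AT2 list were lower, with a median of -3.63. Lyz2, the lysozyme gene of AT2 cells and macrophages, had 55.4, 65.8 and 133 CPM in Club-Tracer, BASC-Tracer and AT2-Tracer members, against 19751, 15238 and 11991 CPM in Sftpc-high cells (mean log2 -7.52). Slc34a2, the AT2 phosphate transporter, had 226, 126 and 31.0 CPM, against 3613, 4483 and 3794 CPM in Sftpc-high cells (-5.26). Lcn2, an antibacterial lipocalin, had 29.6, 81.5 and 27.9 CPM, against 3438, 3423 and 4523 CPM (-6.35). Members were lower in each library for all 3 genes. The transcription factor genes Etv5 (-3.41) and Cebpa (-2.16), both active in AT2 cells, were lower as well. The smallest differences in the AT2 list were for Sftpd, a surfactant collectin, at -2.28 and Scd1, a fatty acid desaturase, at -2.53.

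The genes most above Sftpc-high cells, outside the rule, were Tpm2 (mean log2 4.84), Fn1 (4.83), F3 (4.72), Tuba1a (4.69), Sprr1a (4.68), Pyy (4.54), Pdlim7 (4.49), S100a6 (4.46), Tnip3 (4.43) and Msln (4.39). F3, the tissue factor gene that starts coagulation, had 639.5, 985 and 1241 CPM in Club-Tracer, BASC-Tracer and AT2-Tracer members, against 44.8, 25.6 and 23.6 CPM in Sftpc-high cells, and 90.8%, 88.9% and 90.4% of members had a UMI. S100a6, a calcium-binding protein gene, had 7143, 6593 and 11676 CPM in members, against 378, 251 and 520 CPM. Both genes were higher in members of each of the 3 libraries. Fn1, the fibronectin gene, was patchy: it summed to 274, 340 and 726.5 CPM in members against 9.14, 1.71 and 27.3 CPM in Sftpc-high cells, but it had a UMI in 40.2%, 25.9% and 48.8% of members. Sprr1a, a cornified envelope gene, had a UMI in 17.2%, 25.9% and 33.2% of members. Pyy, a gut hormone gene, came in BASC-Tracer almost entirely from 1 cell, which gave 99.9% of its UMIs. Background cells held 996, 168 and 1585 CPM of Fn1, and the part of free RNA in its values was not tested.

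By function, 14 of 16 measured genes of the transitional list, 21 of 23 contractile and actin genes, 10 of 13 S100 and annexin genes, 13 of 20 integrin and basement membrane genes, 10 of 13 YAP target genes and 10 of 16 p53 target genes were higher in members than in Sftpc-high cells. The list medians were 3.41, 2.17, 1.92, 1.17, 1.97 and 1.34, beside 0.398 for all genes measured. In the transitional list, Areg (0.56) and Hbegf (0.32), growth factors of the EGF family, stayed under 2-fold. Among junction genes, Ocln (2.21) and Dsp (1.91), which encode occludin and desmoplakin, were higher. Among basement membrane and integrin genes, Itgb6 (3.4), a subunit of a TGF-beta activating integrin, Itga2 (3.30) and Lama3 (3.10) were higher, while Lamb3 (0.02) and Lamc1 (0.16) were not 2-fold apart. Of the p53 targets, Phlda3 (2.21), Tnfrsf10b (1.93) and Cdkn1a (1.54) were higher, and Btg2 (-0.16) was not 2-fold apart. Trp53 itself, which encodes p53, had 112, 102 and 104 CPM in Club-Tracer, BASC-Tracer and AT2-Tracer members, against 30.1, 26.1 and 21.2 CPM in Sftpc-high cells. The antigen presentation genes of MHC class II were lower, 6 of 6, with Cd74 at 515, 830 and 1738 CPM in members, against 2353, 2656 and 4648 CPM in Sftpc-high cells (-1.76).

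Against Ager-positive cells, members were low in AT1 genes and again high in keratins, contractile genes and Clu. Of 4536 genes measured, 9.48% differed 2-fold or more, 4.28% higher and 5.2% lower, with a median of 0.0332 for all genes. In every library at once, 64 genes (1.94%) were higher and 97 (2.93%) lower. Of the AT1 list, 13 of 16 were lower, with a median of -2.18. Ager, which encodes an AT1 membrane receptor and defined this class, had 966, 1007 and 2085 CPM in Club-Tracer, BASC-Tracer and AT2-Tracer members, against 5772, 6557 and 8523 CPM. Rtkn2, a marker gene of AT1 cells, had 8.75, 6.98 and 34.3 CPM in members, against 128, 389 and 482 CPM (-3.98). Hopx, a homeobox cofactor gene, had 925, 643 and 782 CPM in members, against 3187, 2993 and 3778 CPM. Igfbp2, a marker of late AT1 cells, had 0, 4.07 and 3.84 CPM in members, against 162, 29.0 and 94.9 CPM (-3.49), and the count of 0 allows up to 1.79 CPM in Club-Tracer. Spock2 (-3.53), Limch1 (-3.36) and Galnt18 (-3.01) were lower too. Aqp5 (-0.83), Lmo7 (-0.58) and Gprc5a (-0.61), also on the AT1 list, were less than 2-fold lower. Of the AT2 list, 5 of 13 measured genes were also lower than in Ager-positive cells (median -0.80). It was 11 of 13 (-1.80) when members rich in club genes were left out, over 0.2% of UMIs. Ager-positive cells rich in club genes were kept there, and their part in this change was not tested.

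Ager lay closer to Sftpc-high cells. It summed in members to 1.16 times (1.10 to 1.23), 1.06 times (1.01 to 1.12) and 1.34 times (1.31 to 1.37) its level in Sftpc-high cells of the same library, in the order Club-Tracer, BASC-Tracer, AT2-Tracer. Other AT1 genes were above Sftpc-high cells by more. Of the AT1 list, 9 of 13 measured genes were higher, with a median of 1.51, led by Cav1 (2.70), the caveolin gene, and Hopx (2.47), while Vegfa (0.21) and Aqp5 (-0.07) were near level. Per cell, the 16 AT1 genes took a median of 0.469%, 0.538% and 0.682% of UMIs in members of the 3 libraries.

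The genes most above Ager-positive cells were Sprr1a (4.26), Fn1 (3.99), Pdlim7 (3.79), Tagln (3.66), Pyy (3.64), Tpm2 (3.4), Myl9 (3.36), Cald1 (3.31), Tnip3 (3.28) and Acta2 (3.21). Of these 10 genes, Tagln, Tpm2, Myl9, Cald1 and Acta2 were on the contractile list. Pdlim7, an actin-associated LIM protein gene, had 115, 109 and 188 CPM in Club-Tracer, BASC-Tracer and AT2-Tracer members, against 4.56, 1.82 and 10.2 CPM in Ager-positive cells. Cald1, which encodes caldesmon, had 135, 272 and 676 CPM, against 4.56, 31.8 and 71.9 CPM. Tagln and Acta2 were not broad: 1 cell gave 82.7% and 97.1% of Tagln UMIs in Club-Tracer and BASC-Tracer members and 96.8% and 94.0% of Acta2 UMIs, and Acta2 had a UMI in 3.45%, 3.70% and 2.99% of members. Over the whole contractile list, 15 of 23 genes were higher, with a median of 1.11. The keratin partners Krt18 (2.07), Krt19 (1.57) and Krt7 (1.07) were all higher. Of the p53 list, 2 genes passed 2-fold, Gdf15 (1.74) and Tnfrsf10b (1.14), and the median was 0.33. Cdkn1a, the cell cycle inhibitor p21, had 942, 1441 and 1542 CPM in members, against 1094, 1410 and 971 CPM in Ager-positive cells, with ratios of 0.861, 1.02 and 1.59, less than 2-fold in each library. Ifit3, an interferon-induced gene, was lower in members at 2.92, 4.66 and 13.6 CPM, against 100.3, 134 and 76.3 CPM.

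**Figure D3:**
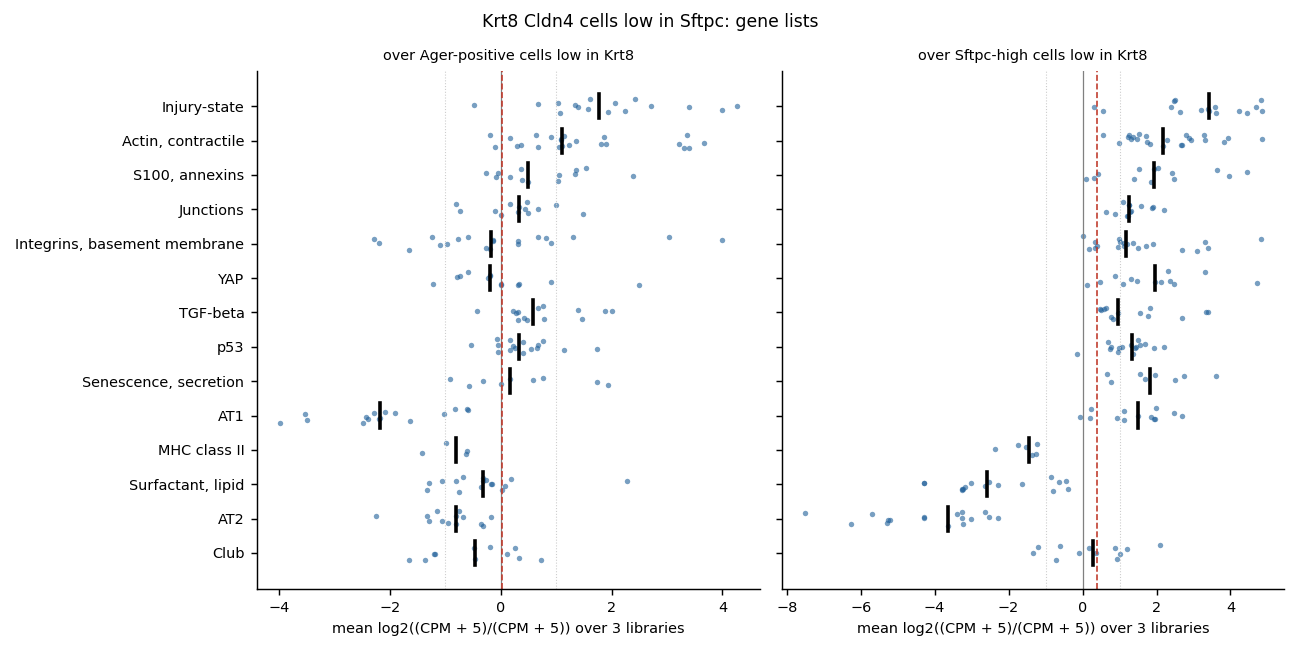
Log2 difference of each measured gene by list, members against Ager-positive cells and against Sftpc-high cells, as the mean over libraries. Black bars are list medians, the red dashed line is the median of all genes measured, and dotted lines mark 2-fold; the AT2 list lies wholly below 2-fold against Sftpc-high cells, and the median of the AT1 list is -2.18 against Ager-positive and 1.51 against Sftpc-high cells.

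The 60 AT2-Tracer cells with the same Krt8 and Cldn4 limits but Sftpc at 1% or more allowed a comparison within 1 library. Here 5.97% of 3619 genes differed 2-fold or more, 3.65% higher and 2.32% lower in members, with a median of 0.181 for all genes. When that median was set to 0, 88 genes were higher and 119 lower, against 132 and 84 without that scaling. With each cell thinned to 3000 UMIs, 433 of 3867 genes differed, 305 higher and 128 lower, and 157 of the 216 genes were shared. Keratin levels were close. Both groups were cut at the same lower Krt8 limit, so levels of keratins that follow Krt8 are a description. Krt18 had 4447 CPM in members and 3373 CPM in cells with Sftpc, Krt19 had 1491 and 1598 CPM, and Krt7 had 2797 and 3039 CPM. Ager also differed little, at 2085 CPM in members and 1999 CPM in cells with Sftpc, a ratio of 1.04 (1.00 to 1.09). Of the AT1 list, 0 of 13 measured genes differed 2-fold in either direction, with a median of 0.51. Beside 5.97% of all genes, that count is near the background.

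Members were lower than cells with Sftpc in the AT2 program and higher in Clu, Fn1 and 8 of 15 p53 targets. Of the AT2 list, 15 of 16 genes were lower, with a median of -3.01. Cxcl15, a lung chemokine gene, had 66.8 CPM in members and 1839 CPM in cells with Sftpc, and Sftpb, the surfactant protein B gene, had 491 and 8121 CPM. Clu had 4600 CPM in members and 647 CPM in cells with Sftpc, 7.11 times higher (6.68 to 7.59). Fn1 had 726.5 and 33.8 CPM, 21.5 times higher (16.4 to 28.8), and Itgb3, an integrin subunit gene, had 74.1 and 4.55 CPM, 16.3 times higher (7.83 to 40.7). Cldn4, whose lower limit was the same for both, had 2432 and 692 CPM. Of the integrin and basement membrane list 3 of 19 were higher (median 0.67), and of the contractile list 7 of 22 (0.75). The p53 targets had a median of 1.08. Gdf15, a stress-induced cytokine, had 136 CPM in members and 11.1 CPM in cells with Sftpc, 12.3 times higher (7.62 to 21.2), although 29.6% of members had a UMI of it and background cells of the library had 541 CPM. Cdkn1a had 1542 and 628 CPM, 2.46 times higher (2.298 to 2.628). Mki67, a gene of dividing cells, was lower, at 5.58 CPM in members and 75.4 CPM in cells with Sftpc, a ratio of 0.0740 (0.0484 to 0.110). That interval does not cover the spread between cells. Of 15 listed cell cycle genes only 3 were measured here, and 2 of them were lower. The groups were cut from 1 library by Sftpc itself, so AT2 genes that follow Sftpc had to differ.

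The Club-Tracer and BASC-Tracer members were not uniform, and many carried airway genes. The 13 club cell genes other than Scgb1a1, which include Cyp2f2 and Cbr2 (enzymes of club cells) and Scgb3a2 (a secretoglobin), took a median of 0.578%, 0.146% and 0.0098% of UMIs in Club-Tracer, BASC-Tracer and AT2-Tracer members. In background cells the same genes took medians of 0.0311%, 0.109% and 0.00863%, and at most 0.152%, 0.364% and 0.367%. Above the highest background cell of its own library lay 63 of 87 Club-Tracer members (72.4%, 61.8 to 81.5%), 19 of 54 BASC-Tracer members (35.2%, 22.7 to 49.4%) and 4 of 301 AT2-Tracer members (1.33%, 0.363 to 3.37%). With 9 background cells in Club-Tracer, that limit is loosely set. Club cell genes were thus above background in most Club-Tracer members and in few AT2-Tracer members. Their median share was 0.919%, 0.0691% and 0.0253% in Ager-positive cells and 0.608%, 0.429% and 0.21% in Sftpc-high cells of the 3 libraries. Members were below both classes in Club-Tracer and AT2-Tracer and between them in BASC-Tracer. Whether the label of an alveolar transitional cell holds for members with club genes was not tested.

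**Figure D4:**
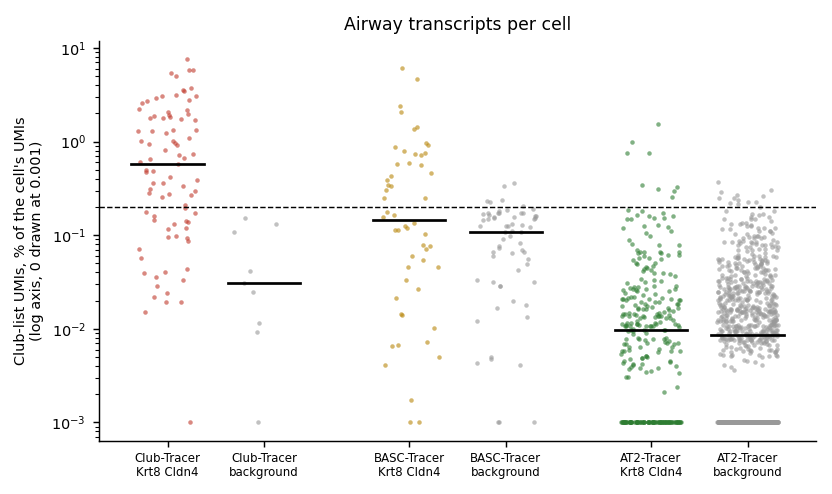
Percent of UMIs per cell from the 13 club cell genes other than Scgb1a1, in members and in background cells of each library (log axis, 0 drawn at 0.001%). The dashed line marks 0.2%; above it lie 59 of 87 members in Club-Tracer, 24 of 54 in BASC-Tracer and 9 of 301 in AT2-Tracer.

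A limit of 0.2% of UMIs, chosen after these values were seen, left 28, 30 and 292 members low in club genes. In Club-Tracer the low members had more Clu, Tpm2, Fn1 and Itgb6, genes named after their values were seen, while Krt19, Areg and Hbegf were not higher in them. Clu was 9776 CPM in the 28 members low in club genes and 1774 CPM in the 59 high ones, Cldn4 was 2719 and 1020 CPM, and Tpm2 was 247.5 and 61.3 CPM. Fn1 was 674 and 65.7 CPM, and Itgb6 was 324 and 90.8 CPM. Krt19 was 2163 and 2329 CPM, Areg 769 and 909 CPM, and Hbegf 134 and 371 CPM. In BASC-Tracer the same order held for Tpm2 (427 CPM in the 30 low members and 74.4 CPM in the 24 high ones), Fn1 (600.5 and 27.0 CPM) and Itgb6 (485.5 and 126 CPM), but Clu was 3675 and 3978 CPM. The surfactant gene Sftpa1 went the other way, at 98.0 CPM in low and 3568 CPM in high members of BASC-Tracer. Depth was similar, with medians of 20851 and 18397 UMIs in low and high members of Club-Tracer and 28975 and 29928.5 UMIs in BASC-Tracer. The tdT transcript was present in both sets, at 1850 and 1202 CPM in Club-Tracer and at 1597 and 1335 CPM in BASC-Tracer.

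Set against AT2-Tracer members, Club-Tracer members were higher in airway genes and lower in MHC class II genes and in part of the integrin, basement membrane and contractile genes. Of 3771 genes measured, 9.71% differed 2-fold or more, 4.35% higher and 5.36% lower in Club-Tracer, with a median of -0.0734. When that median was set to 0, 190 were higher and 171 lower, against 164 and 202 without that scaling. All 11 measured club genes were higher, with a median of 4.31. Cyp2f2 had 1472 CPM in Club-Tracer and 8.19 CPM in AT2-Tracer members, 180 times higher (135 to 245). Cbr2 had 3166 and 97.6 CPM (log2 4.95). Scgb3a1 and Bpifa1, secreted products of the upper airway, were also among the 10 highest, but 1 Club-Tracer cell gave 58.2% and 54.9% of their UMIs. Krt19 had 2272 CPM in Club-Tracer and 1491 CPM in AT2-Tracer, 1.52 times higher (1.47 to 1.58). Clu did not differ beyond counting error, with a ratio of 0.980 (0.957 to 1.00). Tpm2 was lower, with a ratio of 0.222 (0.194 to 0.252), as were Cald1 (-2.28), Myl9 (-2.54) and the matrix gene Col4a3 (-2.43). Of the integrin and basement membrane list, 12 of 20 were lower, with a median of -1.31, of the AT1 list 8 of 13 (-1.11), and of the contractile list 7 of 22 (-0.71). MHC class II genes were lower, 4 of 4, with Cd74 at 515 CPM in Club-Tracer and 1738 CPM in AT2-Tracer members.

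Some of these differences were smaller among members low in club genes, and others were not. Between the 28 Club-Tracer and 292 AT2-Tracer members at or under 0.2%, the AT2 list had a median of -0.17, against 1.24 over all members, and the AT1 list -0.97, against -1.11. The integrin and basement membrane list had a median of -0.77 with 6 of 20 lower, and the contractile list -0.28, with 3 lower and 2 higher of 23. MHC class II genes remained lower, 4 of 4, with a median of -3.10. Clu was then 2-fold or more higher in Club-Tracer, at 9776 CPM, against 4607 CPM in AT2-Tracer (log2 1.08). Tpm2 had 247.5 CPM in Club-Tracer and 580 CPM in AT2-Tracer, a log2 difference of -1.21. Mki67 had 101 CPM in Club-Tracer and 5.39 CPM in AT2-Tracer members low in club genes, with 7 of 8 measured cell cycle genes higher, but 1 Club-Tracer cell gave 66.2% of its Mki67 UMIs. Sftpa1 had 1637 and 187 CPM, and 1 Club-Tracer cell gave 89.3% of it.

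BASC-Tracer members were set against AT2-Tracer members in the same way. Of 3834 genes measured, 3.73% differed 2-fold or more, 2.3% higher and 1.43% lower in BASC-Tracer, with a median of 0.0144. With each cell thinned to 3000 UMIs, 378 of 4054 genes differed, against 143 without thinning, while Club-Tracer against AT2-Tracer members gave 455 of 3925, against 366. Club genes were higher, 8 of 8, with a median of 3.5. Cyp2f2 had 466 CPM in BASC-Tracer and 8.19 CPM in AT2-Tracer, 56.8 times higher. Background cells differed as well: the 13 club genes took a median of 0.109% of their UMIs in BASC-Tracer and 0.00863% in AT2-Tracer. In members the medians were 0.146% and 0.0098%, and the part of free RNA in this difference was not tested. Retnla, a secreted resistin-like gene, was the highest by log2 difference at 5.86, and 1 BASC-Tracer cell gave 94.4% of it. Tpm2 was lower in BASC-Tracer, with 267 and 563.5 CPM, a ratio of 0.474 (0.429 to 0.523), and Ager had 1007 and 2085 CPM, a ratio of 0.483 (0.459 to 0.508). Among the 10 lowest were Ankrd1 (-2.17), a YAP target, Col1a1 (-2.07) and Tgm2, a transglutaminase gene. Among members low in club genes, 63 genes differed, against 143 over all members, and Sftpa1 changed sign, from 3.03 over all members to -0.90. The AT2 list had a median of -0.01, against 0.72 over all members. A difference between Club-Tracer and BASC-Tracer members was not tested, and both were set against the same AT2-Tracer members.

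The AT2-Tracer members also had a higher share of UMIs from the macrophage list. Not all of its genes are particular to macrophages: Cd74 and Lyz2 were higher in Sftpc-high cells than in members of every library. Apoe, a lipoprotein gene strong in macrophages, had 1.46 and 9.89 CPM in Club-Tracer and BASC-Tracer members and 149 CPM in AT2-Tracer members, and 1 AT2-Tracer cell gave 62.1% of it. Lyz2 had 55.4, 65.8 and 133 CPM. The 12 macrophage genes took a median of 0.0275%, 0.0334% and 0.115% of members' UMIs, against 2.37%, 6.69% and 6.06% in background cells, and this list holds Cd74, which is also on the MHC class II list. Of the defining macrophage markers, Adgre1 had 0, 0 and 0.697 CPM and C1qa 0, 1.16 and 12.2 CPM in members, against 12.1, 182 and 147 CPM and 12.1, 4297 and 1691 CPM in background cells. The part of macrophage RNA in the MHC class II difference was not tested. Lymphocyte, endothelial and basal cell lists each had a median share of 0% in members of all 3 libraries. Of the fibroblast and smooth muscle list, Col1a1, Acta2 and Tagln were measured and were higher than in both comparison classes, while the median member had 0% of its UMIs from this list in each library.

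Within a library, members varied along several gene groups. Spearman correlations across cells, given as a description, share the depth and total of each cell. The share of club genes was lower where that of integrin and basement membrane genes was higher, with coefficients of -0.61 over 87 Club-Tracer members and -0.59 over 54 BASC-Tracer members. The contractile list went with Krt8 in every library, with coefficients of 0.47, 0.50 and 0.50 over 87, 54 and 301 members. The p53 targets went the other way from Clu, with coefficients of -0.34, -0.31 and -0.20. Between p53 targets and integrin and basement membrane genes the coefficients were -0.09, -0.27 and -0.47 in Club-Tracer, BASC-Tracer and AT2-Tracer. The p53 list took 0.115%, 0.122% and 0.144% of UMIs at the 10th percentile of members and 0.919%, 1.26% and 1.13% at the 90th. Clu and the UMI total had coefficients of 0.18, 0.46 and 0.39, while the p53 list and the UMI total had -0.42, -0.26 and -0.15. The part of depth in these relations was not tested. AT1 genes and Krt8 had coefficients of -0.34 in AT2-Tracer and -0.04 and -0.11 in the other libraries.

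Across 12 sums of class by library, background cells and cells with Sftpc included where there were 20 or more, the genes whose levels were ordered most like Krt8, out of 5544 compared, were Memo1 and Dstn (Spearman coefficient 0.99 each) and Sfn and S100a14 (0.98 each). Sfn, the stratifin gene, a p53 target that arrests the cell cycle, had 795, 936 and 1817 CPM in Club-Tracer, BASC-Tracer and AT2-Tracer members, against 269, 187 and 162 CPM in Ager-positive cells and 166, 80.1 and 116 CPM in Sftpc-high cells. Dstn, which encodes the actin-severing protein destrin, had 1574, 1700 and 2205 CPM in members, against 996, 933 and 914 CPM in Ager-positive cells and 653, 648 and 596 CPM in Sftpc-high cells. S100a14 had 400, 472 and 619 CPM, against 192, 127 and 184 CPM in Ager-positive cells and 45.0, 22.0 and 41.8 CPM in Sftpc-high cells. Memo1 varied little, from 43.3 to 60.7 CPM in members and from 28.1 to 32.6 CPM in Sftpc-high cells. The 12 sums share libraries and were cut by Krt8, so these genes were ordered with the rule.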

How the data were processed

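The files hold single-cell UMI counts per gene and barcode from 3 libraries, deposited by the authors as Cell Ranger 6.1.1 matrices on mm10, per the submitters' processing notes; no source used here gives the annotation release. The deposited counts cover 32287 features, include the reporters tdT and ZsGFP, and were used unnormalized. Members and gene lists (34 lists, 414 of 415 genes in the files) were chosen with earlier results of these data known. Counts were summed per library and class and scaled to CPM; intervals are exact Poisson, Clopper-Pearson and exact conditional at 95%, and cover counting error only. Sums over fewer than 20 cells were not compared. Ambient RNA was not corrected. Scrublet in scanpy 1.11.5 marked 138, 25 and 96 barcodes in Club-Tracer, BASC-Tracer and AT2-Tracer; where its own threshold marked under 0.5%, the highest scores at the expected share (0.8% per 1000 barcodes) were used, and marked cells were kept. Cells were thinned to 3000 UMIs where shares of cells with a UMI are compared, which leaves out 0 members because of the UMI minimum. Named genes are the 10 highest and 10 lowest log2 differences at 50 CPM and 30 UMIs or more (of the same sign in every library, for class comparisons), leaving out rule, reporter, mitochondrial, ribosomal, sex-linked and unnamed genes; the 4 markers; up to 2 genes at each end of a list; and the 4 genes ordered most like Krt8. Other genes named were chosen after their values were seen. The scripts were tested on simulated data. Alternatives are given under the dependence on processing. Python 3.11.15, numpy 2.4.6, scipy 1.17.1 and pandas 2.3.3 were used.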

Additional observations from a re-analysis of the deposited data

Results flagged for a closer look

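A few genes differed from a comparison class in opposite directions in different libraries; these differences between libraries were not tested, and each is a log2 difference of members against the class named. Scgb3a2, a secretoglobin, was 2.72 against Ager-positive cells in Club-Tracer and -6.66 in BASC-Tracer, where 1 Ager-positive cell gave 99% of its UMIs. Ccl20, a chemokine, was 4.95 in Club-Tracer, where 1 member gave 76.9% of its UMIs, and -3.53 in BASC-Tracer, also against Ager-positive cells. Cxcl1, a neutrophil chemokine, was 1.57 in Club-Tracer and -1.35 in AT2-Tracer against Sftpc-high cells.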

How the results depend on the processing

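No paired analysis was possible because there was 1 library per lineage and no replicate. Of 93 recomputed values, 74 stayed within the limits set, 18 moved and 1 reversed. The share of members was 5.17%, 9.76% and 9.47% in Club-Tracer, BASC-Tracer and AT2-Tracer with Krt8 at 0.1% or more, 1.70%, 2.08% and 3.98% at 0.3% or more, and 4.64% in Club-Tracer with Scgb1a1 under 10%. Genes 2-fold apart between members and cells with Sftpc numbered 216, and 389 with a minimum of 20 CPM, 122 with 100 CPM and 433 with cells thinned to 3000 UMIs. Against Ager-positive cells there were 430, and 283 with a pseudocount of 20 CPM. Against Sftpc-high cells there were 937, and 601 with 100 CPM. Club-Tracer against AT2-Tracer members gave 366, and 603 with 20 CPM and 214 with 100 CPM. BASC-Tracer against AT2-Tracer members gave 143, and 240 with 20 CPM, 81 with 100 CPM, 378 with thinned cells and 63 among members low in club genes; Sftpa1 there turned from 3.03 to -0.90. Leaving out club-gene-rich members or barcodes found in another library was chosen after seeing the data. The cause of these moves was not tested, beyond the gene minimum, which changes how many genes are measured.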

Other observations

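Several groups were measured in members but belong to no statement above. Lgals1, a galectin gene, and Nupr1, a stress-response transcription cofactor gene, were higher than in both comparison classes, with mean log2 differences of 2.38 and 2.24 against Ager-positive cells and 3.34 and 1.99 against Sftpc-high cells. Background cells held 632, 617 and 824 CPM of Lgals1, more than the members. Nupr1 had 1876, 2484 and 2883 CPM in Club-Tracer, BASC-Tracer and AT2-Tracer members, against 258, 979 and 492 CPM in Ager-positive cells. Sox4, a transcription factor gene, had 232, 256 and 291 CPM in members, against 109, 96.2 and 91.7 CPM in Ager-positive cells and 63.1, 47.8 and 60.3 CPM in Sftpc-high cells. Myc was also higher in members than in both classes, with 108, 131 and 92.7 CPM in members, against 36.5, 31.8 and 31.9 CPM in Ager-positive cells and 42.4, 19.4 and 18.5 CPM in Sftpc-high cells. Anxa8, an annexin gene, had 123, 68.7 and 65.5 CPM in members, and 13.7, 17.2 and 6.15 CPM in Ager-positive cells, but 1 cell gave 32%, 33.9% and 18.4% of its UMIs in members.

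Of 16 immediate-early and heat shock genes, which dissociation can induce, 0 were higher and 1 lower against Ager-positive cells, where 4.28% of all genes were higher and 5.2% lower. Against Sftpc-high cells 2 were higher, beside 15.6% of all genes, so these counts are near the background. Between libraries, 1 of the 16 was higher in Club-Tracer than in AT2-Tracer members (list median 0.01), beside 4.35% of all genes. In BASC-Tracer 2 were higher (list median 0.33), beside 2.3% of all genes. Among these 16 genes, Egr1 had 366 and 247 CPM in Club-Tracer and BASC-Tracer members, against 101 CPM in AT2-Tracer members.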
